A study of Mus musculus with 35 samples.

Results

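The proteasome genes of the mouse were followed across myeloid-derived suppressor cells (MDSC) and whole tumors of mice bearing pancreatic cancer, with and without treatment with poly(I:C)c. The members were the protein-coding genes whose symbol is Psm followed by a letter from a to g and a number, which gave 48 of the 53379 genes in the count table. They were 7 subunits of the alpha ring, 7 constitutive subunits of the beta ring, 3 inducible catalytic subunits, 2 tissue-restricted subunits, 6 ATPases of the 19S base, 11 other 19S subunits, 3 assembly chaperones of the regulatory particle, 4 activator subunits, 1 inhibitor and 4 assembly chaperones of the core.

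The proteasome is a barrel-shaped protease made of stacked alpha and beta rings, capped by a regulatory particle that binds ubiquitin-tagged proteins, unfolds them and feeds them into the barrel. In immune cells, and in other cells exposed to interferon, the catalytic beta subunits Psmb5, Psmb6 and Psmb7 can be replaced in newly built particles by Psmb8, Psmb9 and Psmb10, which forms the immunoproteasome. The interferon-inducible activator PA28, made of Psme1 and Psme2, docks on the barrel ends, and the altered cleavage favors peptides that fit MHC class I molecules.

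Tumors were grown from T110299 cells, a single line derived from a KPC mouse (a model of pancreatic ductal adenocarcinoma with tumor alleles switched on by Ptf1a-Cre), implanted into the pancreas of female C57BL/6 mice. Treated mice received 50 µg of poly(I:C)c, a double-stranded RNA mimic complexed with a transfection polymer and sensed by the receptor MDA5, intravenously on days 18 and 20 after tumor induction. Control mice carried the same tumors and are labelled untreated, although the protocol gives them glucose. From spleen and tumor, PMN-MDSC (the granulocytic type, CD11b+ Ly6C lo Ly6G+) and M-MDSC (the monocytic type, CD11b+ Ly6C hi Ly6G-) were sorted after magnetic enrichment of CD11b+ cells, and tumor tissue of untreated mice was lysed whole. All groups therefore share 1 tumor cell line, and no tumor-free mouse and no treated whole tumor entered these comparisons. Each of the 8 MDSC groups had 4 libraries, except treated spleen PMN-MDSC with 3 and treated tumor M-MDSC with 3 of 4, since 1 library of that group held 10 counts in all and was left out. There were 4 whole-tumor libraries, which gave 34 libraries in use.

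The MDSC libraries held 793070 to 4357105 counts in genes and the whole-tumor libraries 3771590 to 8886115. Levels are given as CPM, the counts of a gene relative to library size, scaled between libraries by the trimmed mean of M values. Where genes are compared with each other, CPM per kb of exon is given. The exon length of a gene merges its annotated transcripts, so levels per kb, their order and shares depend on it. Group values are mean ± SD over the libraries named above, and replicates are numbered in the order of the table. Treatment and group effects are log2 fold changes from edgeR's quasi-likelihood test, and a gene was called where its Benjamini-Hochberg adjusted p, over all genes tested in that comparison, was under 0.05. The sample titles give the libraries of a group different numbers, and the same numbers recur across spleen, tumor, cell types and whole tumors. The count columns carry running numbers that no label ties to these, so comparisons between compartments, cell types and whole tumors treat all libraries as independent. The sorted cells were checked against their defining markers. Ly6g, the marker of the PMN-MDSC gate, lay at 36.7 to 97 CPM in untreated and 331 to 466 CPM in treated spleen PMN-MDSC, but at only 0 to 9.19 CPM in untreated tumor PMN-MDSC and 4.98 to 84.7 CPM in treated ones, beside 0 to 4.33 CPM in M-MDSC. Ly6c2, a marker of the M-MDSC gate, lay at 100 to 176 CPM in untreated and 719 to 910 CPM in treated spleen M-MDSC, and at 39.1 to 142 CPM and 2.86 to 602 CPM in those of tumor. In spleen PMN-MDSC it lay at 43.2 to 114 CPM without and 754 to 1385 CPM with treatment, a range that overlapped that of treated M-MDSC. Ccr2, a chemokine receptor of monocytes, went the other way, from 1053 to 1334 CPM in untreated to 81 to 289 CPM in treated spleen M-MDSC. In tumor PMN-MDSC the RNA marker of the gate was thus near 0 in part of the libraries.

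The inducible subunits were present in every MDSC library before treatment. Per kb, Psmb8 stood at 44 ± 14.6 CPM in untreated spleen PMN-MDSC, 43.9 ± 3.08 in tumor PMN-MDSC, 66 ± 13 in spleen M-MDSC and 66 ± 16.6 in tumor M-MDSC. Its constitutive counterpart Psmb5 stood at 17 ± 4.47, 21.2 ± 3.43, 29.4 ± 4.22 and 24.6 ± 7.27 in the same order. In all 4 untreated groups the mean of Psmb8 was thus above that of Psmb5 on this scale. Psmb10 stood above its counterpart Psmb7 in the same way, at 32.1 ± 9.2 against 7.71 ± 0.288 CPM per kb in untreated spleen M-MDSC. Psmb9 differed from these, at 10.4 ± 1.71 against 22.9 ± 2.55 CPM per kb for Psmb6 in the same cells. In untreated spleen PMN-MDSC it stood at 12.2 ± 5.18 against 11.3 ± 1.59. These sizes rest on exon lengths of 3660 bases for Psmb9, 1872 for Psmb6, 1705 for Psmb10 and 3421 for Psmb7. In CPM, untreated spleen M-MDSC held Psmb9 at 33.6 to 47.1 and Psmb6 at 37.6 to 48.4, which overlapped. Psmb10 lay there at 39 to 69.1 CPM and Psmb7 at 25.2 to 27.5 CPM. The 3 inducible subunits made up 57.3% ± 2.77 to 65.3% ± 7.32 of the summed level per kb of the 6 exchangeable catalytic subunits in the 4 untreated MDSC groups. For scale, the median of the 14 constitutive ring subunits in untreated spleen M-MDSC was 20.6 CPM per kb, from Psmb7 at 7.71 to the alpha subunit Psma4 at 49.6. Psme1 was higher than any of these rings' subunits in that group, at 107 ± 15.4 CPM per kb, and its partner Psme2 stood at 35.3 ± 6.1.

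Some members were at the edge of detection. Psmb11, which belongs to the proteasome of thymic epithelium, was at 0 in 24 of the 30 MDSC libraries and never above 1.56 CPM. Psma8, the alpha subunit of testis, was at 0 in 11 of them and reached 3.74 CPM. The regulatory-particle chaperone Psmd9 (3.11 to 12.3 CPM) and the core chaperones Psmg1, Psmg2 and Psmg3 (up to 9.01, 7.15 and 10.8 CPM) also fell under the minimum of a mean of 25 counts and entered the tests in MDSC only where no filter was set. The inhibitor Psmf1 and the chaperone Psmg4 passed it in part of the comparisons, which left 40 to 42 of the 48 members tested for treatment.

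The genes of the immunoproteasome differ in position and in the bases near their starts. Psmb8 (chromosome 17, 34197721-34201454, plus strand) and Psmb9 (chromosome 17, 34181987-34187764, minus strand) lie close to each other in the MHC region, Psmb10 lies on chromosome 8 (105935735-105938444, minus strand), and Psme1 (chromosome 14, 55578123-55581529, plus strand) and Psme2 (chromosome 14, 55587441-55591113, minus strand) also lie close together (GENCODE annotation, GRCm38). RefSeq promoter windows of build GRCm38.p6, from 250 bases before to 50 after a start, matched 40 of the 48 members and were searched on both strands for 4 motifs. Psmb1, Psmb2, Psmb7, Psma8, Psmc3, Psmd3, Psmd7 and Psmg2 were not matched. The interferon-stimulated response element, searched as GAAA, 2 bases of any kind and GAAA, was found for Psmb3, Psmd4, Psmd9, Psme1 and Psmg4, and in 3.44% of all windows. The gamma-activated site TTCNNNGAA was found for Psmb8, Psmd2 and Psmg1, and in 8.3% of all windows. The antioxidant response element TGACNNNGC was found for 6 members, Psmb5 and Psmb6 among them, and in 12.4% of all windows, and CCAAT for 14 members and in 37.4%. Windows of Psmb10 and Psme2 held none of the 4. Matches of some of the members named below are shown on the strand of the gene, with the motif in capitals. A motif on the opposite strand appears as its reverse complement.
Psmb8, gamma-activated site, chr17:34198088-34198116: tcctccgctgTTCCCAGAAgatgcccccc
Psme1, interferon-stimulated response element on the opposite strand, chr14:55578493-55578522: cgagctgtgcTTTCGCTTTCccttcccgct
Psmb9, CCAAT on the opposite strand, chr17:34187324-34187348: gcagccgctgATTGGaaagccgagc
Psmb5, antioxidant response element, chr14:54618024-54618052: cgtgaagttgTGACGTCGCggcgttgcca
A match of letters is a description of the window and not a measured binding site.

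Psmb9 was the member that rose in the most settings: it was called higher after poly(I:C)c in spleen PMN-MDSC, tumor PMN-MDSC and spleen M-MDSC, and not in tumor M-MDSC. In spleen PMN-MDSC it lay at 31.6, 73, 37.3 and 37.5 CPM in the untreated and 109, 182 and 129.8 CPM in the treated libraries. The groups did not overlap, and untreated replicate 2 was the highest of its group. This was a 3.17-fold difference (log2 fold change 1.66, SE 0.33, adjusted p = 0.0171). In tumor PMN-MDSC Psmb9 lay at 22.7, 32.1, 25.2 and 23.1 CPM without and 45.7, 46.4, 43.5 and 49.3 CPM with treatment, again without overlap (1.7-fold, log2 fold change 0.77, SE 0.18, adjusted p = 0.0421). This call was lost in 7 of 8 fits that left out 1 library (adjusted p from 0.0676 to 0.134) and with all 8 MDSC groups in 1 fit (adjusted p = 0.0983). In spleen M-MDSC Psmb9 lay at 33.6, 47.1, 36.5 and 34.5 CPM against 69.3, 91.5, 87.5 and 62.7 CPM, and each treated library was above each untreated one (1.99-fold, log2 fold change 0.99, SE 0.16, adjusted p = 0.0026). In tumor M-MDSC the values were 38.3, 41.6, 27.4 and 44 CPM against 73.3, 44.9 and 50.5 CPM. These did not overlap either, but gave no call (log2 fold change 0.53, SE 0.26, adjusted p = 0.304). The call in spleen PMN-MDSC was lost without untreated replicate 4 (log2 fold change 1.57, adjusted p = 0.0577).

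Psmb8 was called higher in spleen M-MDSC. There it went from 208, 288, 192 and 205 CPM in untreated to 340, 492, 398 and 274 CPM in treated libraries (log2 fold change 0.70, SE 0.19, adjusted p = 0.0287). Treated replicate 4 lay below the highest untreated library, so these groups overlapped, and the call was lost in 5 of 8 fits that left out 1 library (adjusted p from 0.0632 to 0.0992). In spleen PMN-MDSC the untreated libraries held 129, 221, 109.5 and 136 CPM and the treated ones 194, 319 and 313 CPM, which overlapped and did not pass (log2 fold change 0.89, adjusted p = 0.0818). There Psmb8 was called by DESeq2 (adjusted p = 0.0282), with no filter (0.012), with all 8 groups in 1 fit (0.0126) and without untreated replicate 2 (0.0191). In tumor PMN-MDSC Psmb8 was 151, 138, 143 and 162 CPM without and 244, 254, 179.9 and 179 CPM with treatment, without overlap but not called (log2 fold change 0.46, adjusted p = 0.174). In tumor M-MDSC the values, 250.1, 271, 228 and 143 CPM and 355, 237 and 276 CPM, overlapped (log2 fold change 0.33, adjusted p = 0.511).

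Psmb10 passed the test in spleen M-MDSC as well, with 67.2, 69.1, 43.5 and 39 CPM in untreated and 97.8, 139.6, 105 and 75 CPM in treated libraries (log2 fold change 0.89, SE 0.24, adjusted p = 0.0281). The groups did not overlap, although treated replicate 4 was close to the highest untreated value, and the call was lost with all 8 groups in 1 fit (adjusted p = 0.0626) and in 5 of 8 fits that left out 1 library (adjusted p from 0.0502 to 0.0887). In spleen PMN-MDSC the spread was wide, at 21.2, 29.2, 10.5 and 12.4 CPM against 18.2, 27.2 and 58.6 CPM, where 1 treated library alone exceeded all untreated ones (log2 fold change 0.94, adjusted p = 0.252). Neither tumor population gave a call (0.18, adjusted p = 0.776 in PMN-MDSC and 0.28, adjusted p = 0.625 in M-MDSC).

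Of the PA28 subunits, Psme2 was called in both spleen populations. In spleen PMN-MDSC it lay at 29.4, 45, 32.2 and 33.5 CPM without and 71.9, 79.9 and 104 CPM with treatment (2.46-fold, log2 fold change 1.30, SE 0.22, adjusted p = 0.00924). In spleen M-MDSC it lay at 62.8, 72.3, 47.3 and 66.9 CPM and 135, 172, 128 and 99.6 CPM (2.08-fold, log2 fold change 1.05, SE 0.18, adjusted p = 0.00332). The treated and untreated libraries were apart in both. In tumor PMN-MDSC the values were 53.2, 50.8, 46.8 and 39.3 CPM and 83.7, 71.6, 59.8 and 56 CPM, which did not overlap and gave no call (log2 fold change 0.44, adjusted p = 0.232). In tumor M-MDSC they were 73.2, 67, 63.9 and 40.4 CPM and 84.3, 65.8 and 85.3 CPM (log2 fold change 0.30, adjusted p = 0.496), and the groups overlapped. Psme2 shares 28.3% of its 50-base windows with its near-copy Psme2b, which held 8867 counts over all libraries against 7527 for Psme2 itself. The split of reads between both is therefore uncertain. With both summed, an alternative added after seeing the data, the log2 changes were 1.27 (adjusted p = 0.0223) in spleen PMN-MDSC and 0.76 (adjusted p = 0.00624) in spleen M-MDSC.

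Psme1 was called in spleen M-MDSC, where it went from 223, 284, 237 and 204 CPM to 410.4, 583, 427 and 354 CPM without overlap (log2 fold change 0.86, SE 0.17, adjusted p = 0.00662). In spleen PMN-MDSC it was not called, with 222, 184, 136 and 118 CPM in untreated and 268, 324 and 356 CPM in treated libraries (log2 fold change 0.94, adjusted p = 0.0514), although all treated libraries were higher. It was called there by DESeq2 (adjusted p = 0.0102), with no filter (0.00707), with all 8 groups in 1 fit (0.0175) and without untreated replicate 1 (0.0385). In tumor PMN-MDSC the values 139, 116, 200.2 and 216 CPM and 301, 288, 188 and 196 CPM overlapped (log2 fold change 0.47, adjusted p = 0.307). In tumor M-MDSC they were 217, 215, 236 and 450 CPM and 398, 218 and 316 CPM (log2 fold change 0.094, adjusted p = 0.917). Here the highest library was an untreated one, replicate 4, which is the smallest library of the MDSC at 793070 counts. The other activators were called in no treatment comparison: Psme3, the nuclear PA28 gamma, had log2 fold changes from -0.011 to 0.25, and Psme4, also called PA200, from -0.10 to 0.49.

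**Figure D1:**
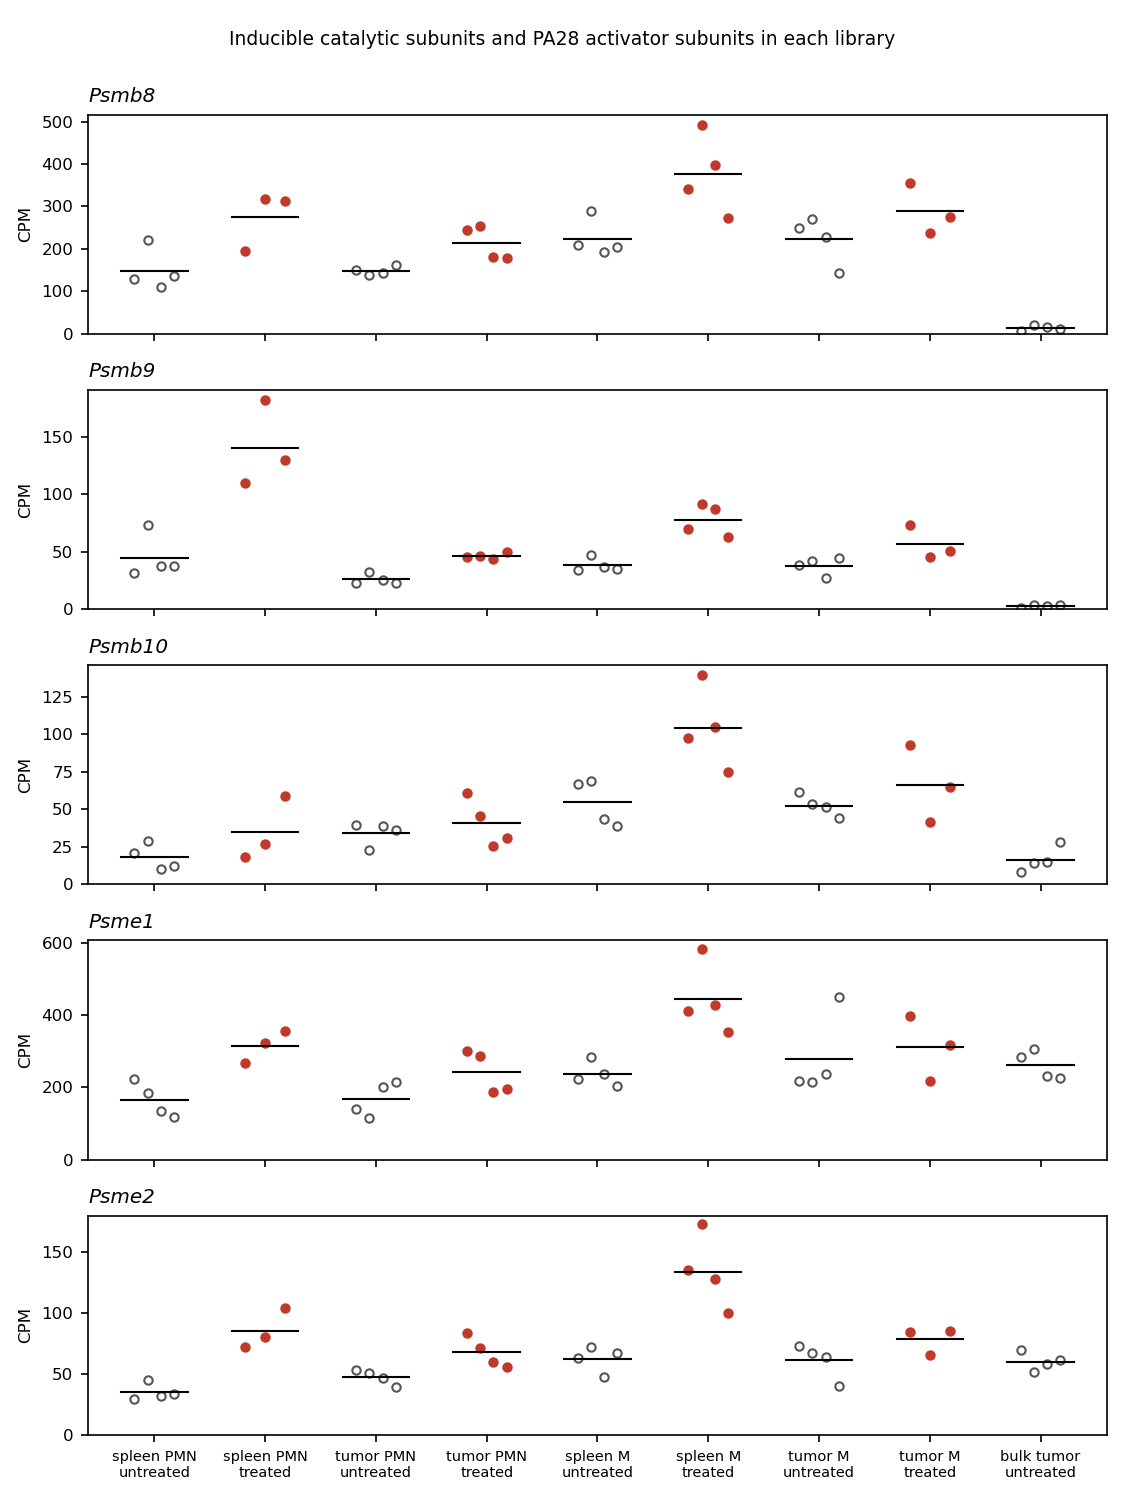
CPM of the inducible catalytic subunits Psmb8, Psmb9 and Psmb10 and of the PA28 subunits Psme1 and Psme2 in each library, by group, with untreated libraries as open grey circles, treated libraries as filled red circles and the group mean as a black line. Psmb9 and Psme2 are apart between treated and untreated spleen libraries of both cell types, and the whole tumors are near the bottom for Psmb8 and Psmb9 but not for Psme1 and Psme2.

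In spleen M-MDSC the rise reached beyond these 5 genes to most parts of the complex. After treatment, 34 of the 42 members tested were called higher and 0 lower, against 10.7% higher and 8.96% lower of all 8827 genes tested. No member was lower at an unadjusted p under 0.05 by edgeR, and DESeq2 called none lower. The median log2 change of the members was 0.72 and that of all genes -0.012. The 34 were spread over the complex: 6 of 7 alpha subunits, 6 of 7 constitutive beta subunits, all 3 inducible subunits, 6 of 6 ATPases, 10 of 11 other 19S subunits, 1 of 2 tested chaperones of the regulatory particle and 2 of 4 activators.

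The constitutive catalytic subunits were among them. Psmb5, which carries the chymotrypsin-like activity, lay at 28.8, 29.7, 21.2 and 26.1 CPM in untreated and 40.4, 47.3, 42.8 and 42.9 CPM in treated spleen M-MDSC (log2 fold change 0.67, SE 0.14, adjusted p = 0.00799). Psmb6, with the caspase-like activity, lay at 40.7, 48.4, 37.6 and 45.2 CPM and 64.2, 95.6, 78 and 80.2 CPM (log2 fold change 0.84, SE 0.14, adjusted p = 0.00338). Psmb7, with the trypsin-like activity, lay at 25.2, 26, 26.8 and 27.5 CPM and 39.3, 53.9, 54.7 and 48.8 CPM (log2 fold change 0.85, SE 0.13, adjusted p = 0.0023). All 3 were apart between treated and untreated libraries, with changes of the same order as those of Psmb8, Psmb9 and Psmb10. Psmb5 shares 54.1% of its windows with other genes, mainly the pseudogene Gm3375, which held 11.1% as many counts, so its level is less certain.

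Among the regulatory particle, Psmd14, the deubiquitinase that removes ubiquitin chains from substrates, had the largest change. It lay at 31.4, 31.7, 31.3 and 36.1 CPM in untreated and 66.8, 79.4, 74.5 and 59.5 CPM in treated spleen M-MDSC (log2 fold change 1.05, SE 0.12, adjusted p = 0.000405). The ATPase Psmc1 followed, with 62.4, 56.9, 55.3 and 57.6 CPM and 103, 123, 116 and 135 CPM (log2 fold change 0.997, SE 0.12, adjusted p = 0.000665). Every treated library of both genes was above every untreated one. Psmd10, an assembly chaperone also known as gankyrin, rose with a log2 fold change of 0.91 (adjusted p = 0.00959). The smallest changes called were those of the 19S subunits Psmd8 (0.46, adjusted p = 0.0239) and Psmd13 (0.54, adjusted p = 0.0236) and of the alpha subunit Psma3 (0.53, adjusted p = 0.021). Psma3 has a pseudogene, Gm13835, with 149% of its counts, and the Psmd8 call was lost with all 8 groups in 1 fit (adjusted p = 0.12). Leaving out 1 library at a time, the calls were lost in 5 of 8 fits for Psmd8, 4 of 8 for Psmd13 and 4 of 8 for Psma3.

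8 members tested in spleen M-MDSC did not pass. They were Psma7 (0.38, adjusted p = 0.127), Psmb3 (0.61, adjusted p = 0.05), Psmd6 (0.47, adjusted p = 0.0618), the chaperone Psmd5 (0.26), the activators Psme3 and Psme4 (0.10 and 0.29), the inhibitor Psmf1 (0.044) and the core chaperone Psmg4 (-0.26). The members outside the 26S particle and the PA28 pair were thus mostly among those not called. With the study's thresholds, an adjusted p under 0.001 and a change of 2-fold or more, applied here to edgeR's p-values, only Psmd14 was called higher in spleen M-MDSC, where 1.82% of all genes were.

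Markers of other cells moved with treatment in these libraries. The 4 erythroid markers summed to 24.4 to 50.8 CPM in untreated spleen M-MDSC and 0.629 to 2.75 CPM in treated ones, with Hbb-bt at 0 in the latter. The plasma cell markers, 2 of 2 detected, summed to 11.1 to 66.5 CPM in the untreated and 12.3 to 913 CPM in the treated group, with the maximum in treated replicate 4. Without that library 35 members were called. The 5 M-MDSC markers summed to 2614 to 3018 CPM without and 1766 to 2982 CPM with treatment, but they moved in opposite directions, with Ly6c2 and Ccr2 as given above and Cx3cr1 at 124 to 259 CPM in untreated and 4.37 to 37.2 CPM in treated libraries. In bulk RNA of sorted cells, fewer cells of a type and less RNA per cell cannot be told apart, and the part of these markers in the members' changes was not tested.

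In spleen PMN-MDSC, Psmb9 and Psme2 were the 2 of 40 members tested that were called higher, and 0 were lower, against 6.1% higher and 5.52% lower of all 7261 genes. The members' share was thus close to the background, while their median log2 change was 0.29 beside 0.014 for all genes. Without treated replicate 1 the members' median was 0.17, and by upper-quartile scaling, added after seeing the data, 0.12 beside -0.16 for all genes. By edgeR 7 members, all with higher values, were past an unadjusted p of 0.05: Psma5, Psmb5, Psmb8, Psmb9, Psmc2, Psme1 and Psme2. DESeq2 called 4 members and a fit over all 8 MDSC groups called 8, but the shares of all genes called by these were not counted. Psmb5 had 11.3, 18.9, 18.6 and 12.4 CPM without and 24.8, 25.6 and 27.1 CPM with treatment, with no overlap and no call (log2 fold change 0.78, adjusted p = 0.108). The other constitutive catalytic subunits Psmb6 (0.40, adjusted p = 0.47) and Psmb7 (0.39, adjusted p = 0.417) were not called. The 6 PMN-MDSC markers, all detected, summed to 12790 to 24800 CPM in untreated and 30040 to 35420 CPM in treated spleen PMN-MDSC, and 3 of 3 red pulp macrophage markers to 152.9 to 532.6 CPM and 27.1 to 61.2 CPM. The 4 dendritic cell markers summed to 21 to 36.7 CPM in untreated and 0.501 to 4.89 CPM in treated libraries, with Flt3 and Xcr1 at 0 in the latter, and 4 erythroid markers to 67.2 to 183.6 CPM and 0.501 to 4.96 CPM, with Hba-a1 at 0 in the latter. The 5 M-MDSC markers summed to 627.7 to 1189 CPM and 959.2 to 1777 CPM, with Ly6c2 as given above, Ccr2 at 37.7 to 235 CPM and 1.09 to 2.48 CPM and Cx3cr1 at 5.82 to 34.7 CPM and 0 to 1.5 CPM. The part of these markers in the changes of Psmb9 and Psme2 was not tested. With the study's thresholds on edgeR's p-values 0 members passed as higher, where 0.0413% of all genes did.

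In tumor PMN-MDSC, Psmb9 was the single member called of 42 tested, against 2.29% higher and 1.07% lower of all 8308 genes. The median log2 change was 0.17 for the members and 0.006 for all genes, with 34 members above 0. Without treated replicate 1 the members' median was 0.091. Psmb5 (0.20), Psmb6 (0.23) and Psmb7 (0.010) were not called. The summed tumor epithelium markers ran from 89.5 to 576.1 CPM in untreated and 68 to 158.7 CPM in treated libraries, all 4 detected in both groups. The PMN-MDSC markers summed to 914.8 to 3014 CPM and 2537 to 9195 CPM in the same order, and the 5 M-MDSC markers to 1488 to 1908 CPM and 1001 to 1882 CPM. Of the latter, Ccr2 lay at 299 to 428 CPM and 11.8 to 80.1 CPM, and Ly6c2, in the other direction, at 1.85 to 11.2 CPM and 67 to 273 CPM. The part of these markers in the change of Psmb9 was not tested. With the study's thresholds on edgeR's p-values 0 members passed as higher, where 0.241% of all genes did.

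In tumor M-MDSC, edgeR called 0 of 42 members higher or lower, against 1.82% higher and 1.06% lower of all 8360 genes. Past an unadjusted p of 0.05 there were 2 members, Psmb6 (0.68, adjusted p = 0.0878) and the ATPase Psmc2 (0.61, adjusted p = 0.167), and DESeq2 called 1. Psmb6 lay at 46.2, 48.8, 54.9 and 41.6 CPM without and 86.8, 63.4 and 88.8 CPM with treatment, and these values did not overlap. The median log2 change of the members was 0.25 beside -0.001 for all genes. Without treated replicate 2 that median was 0.40 and 1 member was called, and without treated replicate 1 it was 0.14. The 5 M-MDSC markers summed to 2674 to 3266 CPM in untreated and 1748 to 2651 CPM in treated libraries. Of these, Ccr2 lay at 1064 to 1498 CPM and 33.2 to 475 CPM. Treated replicate 2 stood apart in markers of both cell types. Its Ly6c2 was at 2.86 CPM against 418 and 602 in the other treated libraries, and its Cx3cr1 at 481 against 57.4 and 66.5. Mmp8, a neutrophil collagenase, was at 1.1 against 69.7 and 136. The 3 red pulp macrophage markers, all detected, summed to 25.9 to 116.5 CPM in untreated and 108 to 719.1 CPM in treated tumor M-MDSC. Vcam1 made up most of these sums, at 24.2 to 99.05 CPM and 98.99 to 681 CPM. Treated libraries held Spic at 6.52 to 31.3 CPM and Cd5l at 2.44 to 20.9 CPM. Whole tumors held Vcam1 at 564 to 794 CPM, with Spic up to 0.741 and Cd5l up to 0.212 CPM. The part of all these markers was not tested. With the study's thresholds on edgeR's p-values 0 members passed as higher, where 0.012% of all genes did. The members' summed CPM, tissue-restricted ones included, went from 2637 ± 202 to 4429 ± 550 in spleen M-MDSC, from 1753 ± 134 to 2385 ± 187 in spleen PMN-MDSC, from 2160 ± 112 to 2612 ± 417 in tumor PMN-MDSC and from 2880 ± 75.7 to 3433 ± 614 in tumor M-MDSC.

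**Figure D2:**
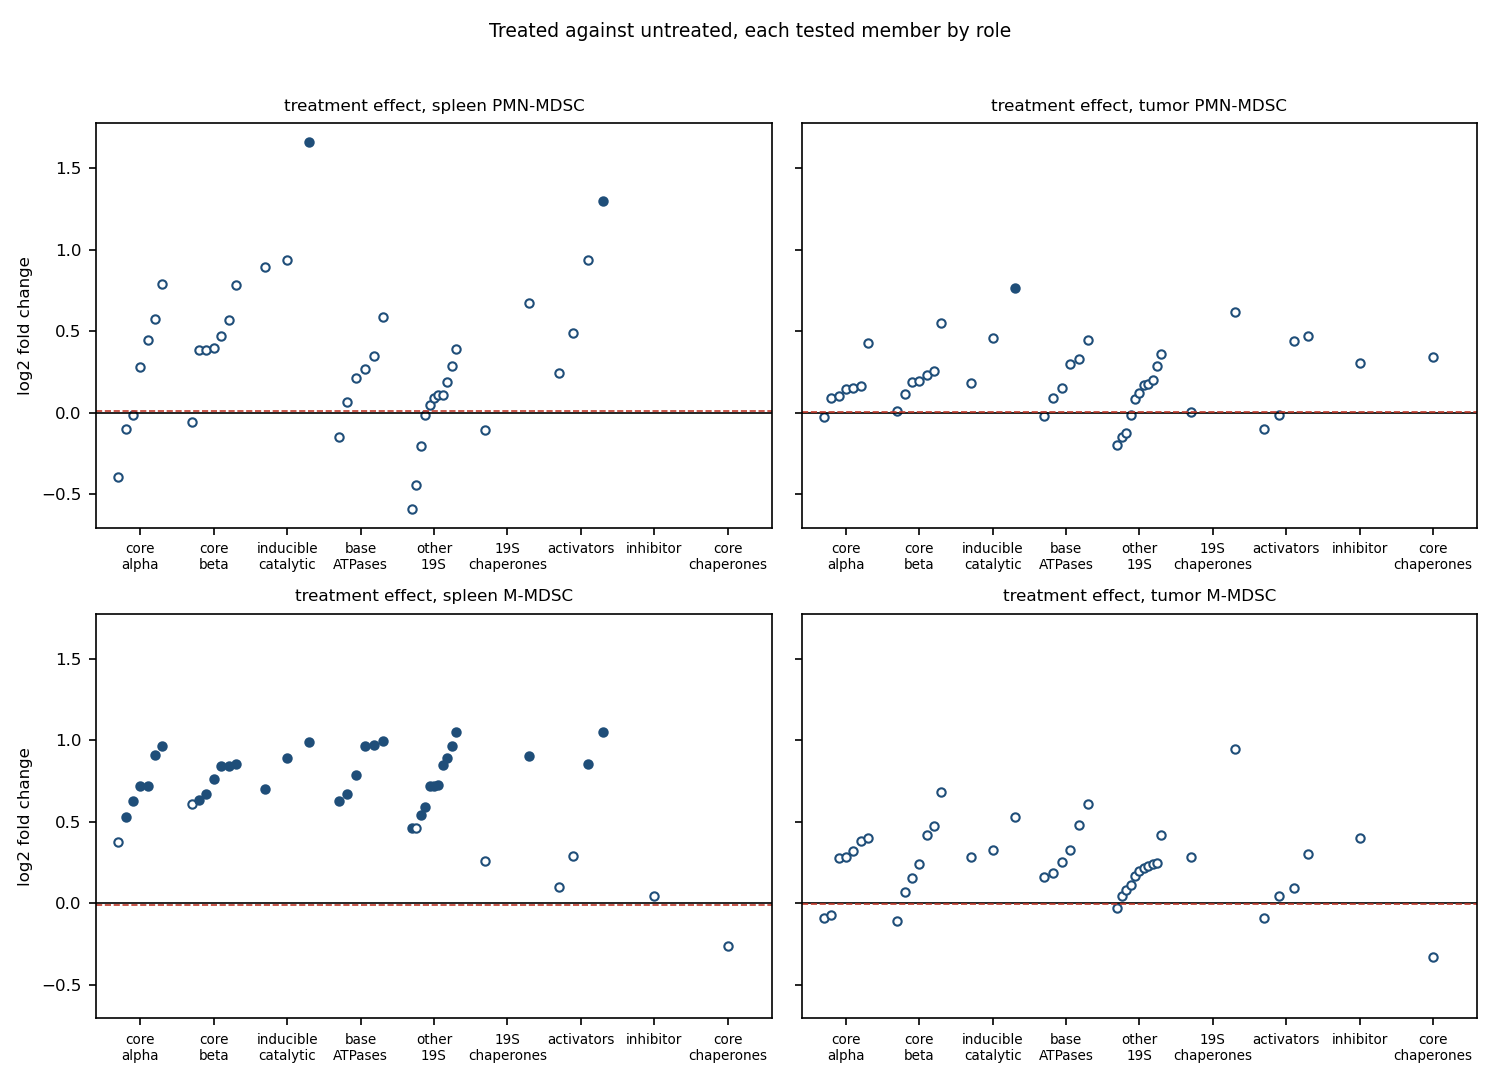
Log2 fold change, treated against untreated, of each member tested, by its role in the complex, for the 4 MDSC populations. Filled points have an adjusted p under 0.05, and the dashed red line is the median of all genes tested. In spleen M-MDSC 34 of 42 points are filled, while 2, 1 and 0 are filled in spleen PMN-MDSC, tumor PMN-MDSC and tumor M-MDSC.

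The treatment effects were then compared with each other in 1 fit over the 8 MDSC groups, which tested 42 members among 8536 genes. Between cell types in spleen, the effect differed for 6 members, and 13.4% of all genes, so 6 of 42 was a share close to the background. In all 6 the effect was more positive in M-MDSC. They were the 19S subunit Psmd7 (log2 difference of effects 1.51, SE 0.44, adjusted p = 0.0215), the 19S subunit Psmd3 (1.23, SE 0.41, adjusted p = 0.0446), Psmd14 (1.08, SE 0.35, adjusted p = 0.0405), the ATPase Psmc1 (0.99, SE 0.30, adjusted p = 0.0267), Psma3 (0.98, SE 0.25, adjusted p = 0.00974) and the 19S subunit Psmd11 (0.79, SE 0.24, adjusted p = 0.027). Psmd7 shows the pattern, with 42.4, 25.6, 23.3 and 23.6 CPM in untreated and 27.3, 12.5 and 17.5 CPM in treated spleen PMN-MDSC, and 49.99, 53.2, 53.6 and 52.2 CPM and 88.1, 121, 96.6 and 83 CPM in spleen M-MDSC. It was not called lower in PMN-MDSC (log2 fold change -0.59, adjusted p = 0.355) and was called higher in M-MDSC (log2 fold change 0.85, adjusted p = 0.00174). Leaving out 1 library at a time moved the number of such members between 0 and 8.

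The inducible genes were not among the 6. For them the spleen M-MDSC effect minus the PMN-MDSC effect was -0.13 for Psmb8, -0.62 for Psmb9 (adjusted p = 0.266), -0.010 for Psmb10, -0.031 for Psme1 and -0.19 for Psme2. A smaller rise of these 5 in spleen PMN-MDSC was therefore not shown, despite the different calls. Between tumor and spleen, the effect differed in PMN-MDSC for 0 of 42 members by edgeR, against 6.28% of all genes, with 4 members past an unadjusted p of 0.05 and 1 called by DESeq2. Psme2 (-0.84, adjusted p = 0.0876) and Psmb9 (-0.88, adjusted p = 0.16) had negative values, that is a smaller change in tumor. In M-MDSC the count was also 0 of 42 by edgeR, against 1.48% of all genes, with 12 members past an unadjusted p of 0.05 and 1 called by DESeq2. There 40 of the 42 values were negative, with a median of -0.48 for the members and -0.023 for all genes. Between cell types within tumor, 0 of 42 members and 0% of all genes differed by edgeR, with 0 members past an unadjusted p of 0.05 and 0 called by DESeq2.

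Whether the inducible subunits rose relative to the subunits they replace was asked with the ratio of each pair in counts per kb. The exact permutation test, 2-sided, allows no p under 0.0286 with 4 libraries a group and 0.0571 with 3 against 4, and adjusted over the 12 ratios no value under 0.0571 was possible. None of the 12 could therefore pass, and the shifts are given as sizes. Psmb9 to Psmb6 had the largest shift in spleen PMN-MDSC, 1.36 on the log2 scale or 2.57-fold (exact permutation p = 0.1143, adjusted p = 0.8), and in tumor PMN-MDSC it was 0.58 (exact permutation p = 0.1429). In tumor M-MDSC it was negative, at -0.16 or 0.892-fold (exact permutation p = 0.5714). Adjusted values of the 12 ran from 0.8 to 0.9143. In spleen M-MDSC this ratio moved by 0.15 (exact permutation p = 0.3143), Psmb8 to Psmb5 by 0.019 (p = 0.9143) and Psmb10 to Psmb7 by 0.058 (p = 0.8571). Both sides of each pair had risen there. The share of the 3 inducible subunits among the 6 went from 64.1% ± 3 to 64.4% ± 4.62 in spleen M-MDSC and from 63.3% ± 4.22 to 63.4% ± 3.93 in tumor M-MDSC. It went from 65.3% ± 7.32 to 72.6% ± 8.14 in spleen PMN-MDSC and from 57.3% ± 2.77 to 61.1% ± 1.53 in tumor PMN-MDSC.

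**Figure D3:**
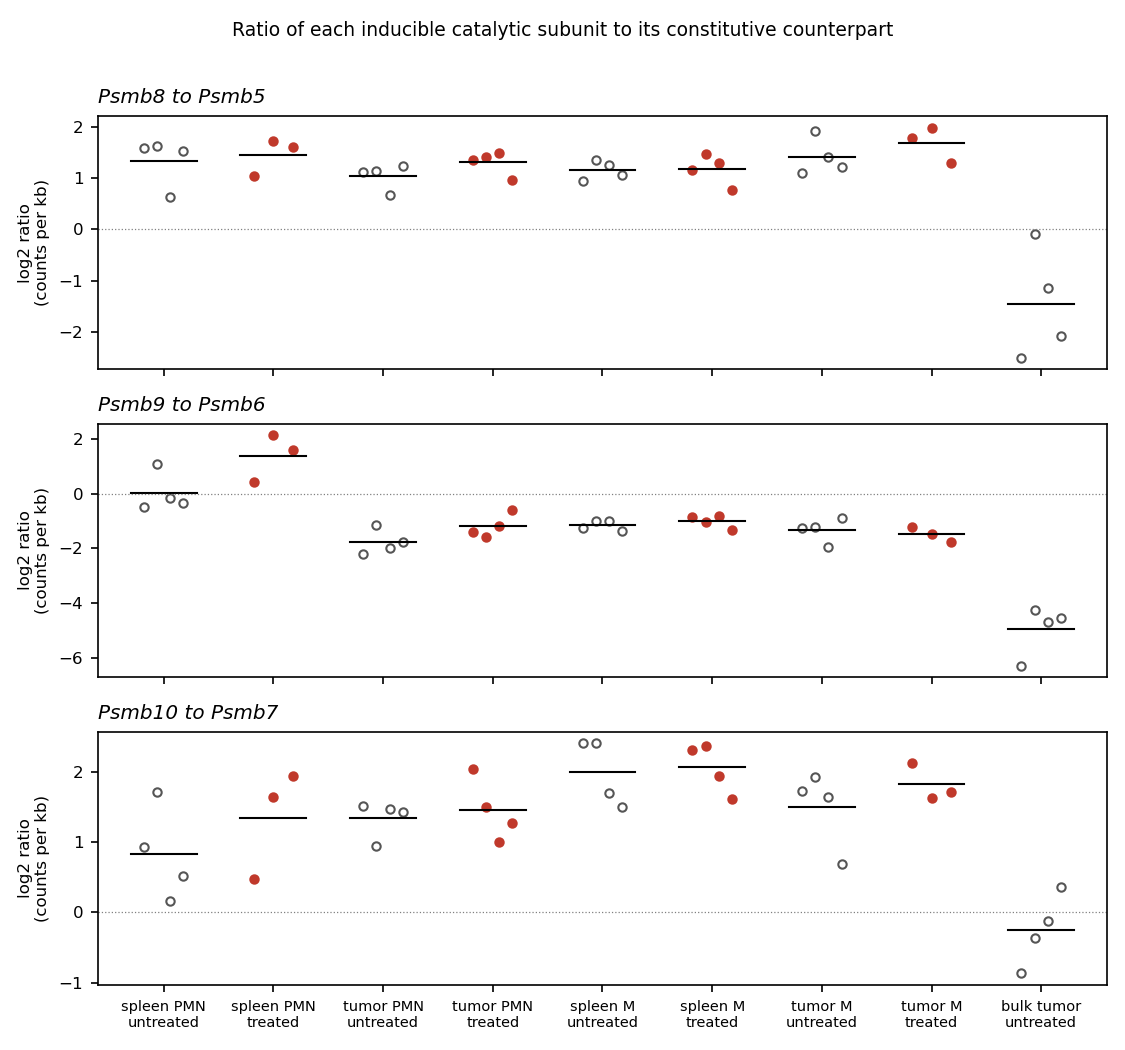
Log2 ratio, in counts per kb, of each inducible catalytic subunit to the constitutive subunit it replaces (Psmb8 to Psmb5, Psmb9 to Psmb6, Psmb10 to Psmb7) in each library, with untreated libraries open, treated libraries filled and group means as black lines. In spleen M-MDSC treated and untreated ratios overlap for all 3 pairs, and the whole tumors have the lowest group mean for each pair.

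In untreated mice, tumor PMN-MDSC had more proteasome mRNA than spleen PMN-MDSC for part of the complex. Of 40 members tested, 22 were called higher in tumor and 1 lower, against 29.4% higher and 29.7% lower of all 7971 genes, and the medians were 0.56 for the members and 0.01 for all genes. All 6 ATPases were among the higher ones, with 5 of 7 constitutive beta subunits, 6 of 11 other 19S subunits, 2 of 7 alpha subunits, 1 of 3 inducible subunits and 2 of 4 activators. The ATPase Psmc5 lay at 15.2, 16.4, 8.15 and 13.1 CPM in spleen and 30.02, 31.1, 34.4 and 28.6 CPM in tumor without overlap (log2 fold change 1.34, SE 0.25, adjusted p = 0.00101). Psmb6 rose from 21.1 ± 2.97 to 45.2 ± 8.07 CPM (log2 fold change 1.20, SE 0.19, adjusted p = 0.000369). The ATPases Psmc1 and Psmc2 had the smallest positive differences called (0.50 and 0.51). The inducible genes diverged. Psmb10 was higher in tumor, at 21.2, 29.2, 10.5 and 12.4 CPM in spleen and 39.6, 22.8, 38.8 and 36.5 CPM in tumor, where 1 pair of libraries crossed (log2 fold change 1.02, SE 0.34, adjusted p = 0.0242). This call was lost in 5 of 8 fits that left out 1 library (adjusted p from 0.0509 to 0.0673). Psmb9 had a negative change that missed the threshold (log2 fold change -0.69, adjusted p = 0.0716) and was called lower with no filter (-0.76, adjusted p = 0.0132), with all 8 groups in 1 fit (-0.72, adjusted p = 0.0171) and without spleen replicate 1 (adjusted p = 0.033), and Psmb8 was not called (0.091) but was at 0.42 and called without spleen replicate 2 (adjusted p = 0.0285). The member called lower was the 19S subunit Psmd13, at 43.2, 54.7, 53.6 and 47.6 CPM in spleen and 31.7, 22.8, 39.6 and 30.9 CPM in tumor (log2 fold change -0.57, SE 0.19, adjusted p = 0.0263). The Psme2 call (log2 fold change 0.55, adjusted p = 0.0432) turned to -0.035 when Psme2b was summed with it. Leaving out 1 library at a time, the calls were lost in 5 of 8 fits for Psmd13, 6 of 8 for Psme2 and 2 of 8 each for Psmc1 and Psmc2. PMN-MDSC markers summed to 12790 to 24800 CPM in spleen and 914.8 to 3014 CPM in tumor, M-MDSC markers to 627.7 to 1189 CPM and 1488 to 1908 CPM, and epithelial markers to 0 to 1.83 CPM (Krt8 and Krt19 at 0) and 89.5 to 576.1 CPM. Erythroid markers summed to 67.2 to 183.6 CPM in spleen and 0 to 12.4 CPM in tumor, and B cell markers to 28.7 to 67.2 CPM and 2.83 to 8.8 CPM. The part of all these markers in the differences was not tested. Without spleen replicate 3, 14 members were called instead of 23.

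In untreated M-MDSC the compartments differed for 2 of 42 members, both higher in tumor, against 15.7% higher and 12.7% lower of all genes. These were Psmd14 (log2 fold change 0.59, adjusted p = 0.0306), at 32.6 ± 2.34 CPM in spleen and 48.5 ± 11.9 CPM in tumor, and the ATPase Psmc6 (log2 fold change 0.44, adjusted p = 0.0401), at 45.4 ± 7.31 and 60 ± 5.97 CPM. The calls were lost in 5 of 8 fits that left out 1 library for Psmd14 and in 6 of 8 for Psmc6. The 4 epithelial markers summed to 0.442 to 6.96 CPM in spleen and 14.1 to 225.8 CPM in tumor M-MDSC, and the 6 PMN-MDSC markers to 1254 to 2260 CPM and 173.6 to 443.1 CPM, and their part was not tested. No inducible or PA28 gene was called by edgeR, and at an unadjusted p of 0.05 none of the 5 passed. Their log2 differences were 0.046 for Psmb8, 0.006 for Psmb9, 0.001 for Psmb10, 0.28 for Psme1 and 0.031 for Psme2. Those of Psmb8, Psmb9, Psmb10 and Psme2 turned negative under upper-quartile scaling, which also moved the median of all genes from 0.016 to -0.134.

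Between the cell types, untreated spleen M-MDSC exceeded spleen PMN-MDSC in 30 of 42 members, with 0 lower, against 33.4% higher and 30.9% lower of all genes. By edgeR no member was lower at an unadjusted p of 0.05, and DESeq2 called none lower. The median was 0.64 for the members and 0.082 for all genes. The calls covered 5 of 7 alpha and 6 of 7 constitutive beta subunits, 5 of 6 ATPases, 7 of 11 other 19S subunits and 3 of 4 activators. The largest differences called were those of the core chaperone Psmg4 (log2 fold change 1.80, SE 0.51, adjusted p = 0.0111), Psmb10 (log2 fold change 1.65, SE 0.34, adjusted p = 0.00212) and the alpha subunit Psma5 (log2 fold change 1.31, SE 0.17, adjusted p = 0.00014). Psmb10 lay at 21.2, 29.2, 10.5 and 12.4 CPM in PMN-MDSC and 67.2, 69.1, 43.5 and 39 CPM in M-MDSC, with all M-MDSC libraries above. For Psmg4, PMN-MDSC replicate 1 lay at 14.7 CPM against 2.18 to 4.27 in the others, and without it the log2 fold change was 2.88. The smallest were those of the 19S subunits Psmd11 (0.37) and Psmd14 (0.49) and of the activator Psme3 (0.44). Psma5 shares 50% of its windows with other genes, mainly the pseudogene Gm8394, which held 10% as many counts, so its level is less certain. Psmb8 was also higher in M-MDSC (log2 fold change 0.64, adjusted p = 0.03), whereas Psmb9 was not called (log2 fold change -0.17, adjusted p = 0.575) at 44.8 ± 19 and 38 ± 6.25 CPM. Leaving out 1 library at a time, calls were lost in 6 of 8 fits for Psmb8, 5 of 8 for Psme1, 6 of 8 for Psmd11 and 3 of 8 each for Psmd14 and Psme3. The inhibitor Psmf1, which binds the core particle, was higher in M-MDSC as well (log2 fold change 1.16, adjusted p = 0.000591). The 3 red pulp macrophage markers summed to 152.9 to 532.6 CPM in spleen PMN-MDSC and 53.3 to 91.4 CPM in spleen M-MDSC, and the 4 erythroid markers to 67.2 to 183.6 CPM and 24.4 to 50.8 CPM, and their part was not tested. In tumor, 2 of 41 members were called higher in M-MDSC and 0 lower, against 5.73% higher and 7.25% lower of all genes. The count was 5 with no filter and 5 without M-MDSC replicate 4, and it was 1 in 5 of the other fits that left out 1 library. PMN-MDSC markers summed to 914.8 to 3014 CPM in tumor PMN-MDSC and 173.6 to 443.1 CPM in tumor M-MDSC, and M-MDSC markers to 1488 to 1908 CPM and 2674 to 3266 CPM. Of the latter, Ccr2, Ly6c2 and Fcgr1 were higher in M-MDSC, and Csf1r overlapped at 815 to 1112 CPM and 1052 to 1261 CPM. Cx3cr1 went the other way, at 197 to 241 CPM and 46.8 to 163 CPM. Red pulp macrophage markers summed to 176.9 to 396 CPM in tumor PMN-MDSC and 25.9 to 116.5 CPM in tumor M-MDSC. Of these, Vcam1 lay at 164 to 389 CPM and 24.2 to 99.05 CPM, while Spic and Cd5l overlapped. Epithelial markers summed to 89.5 to 576.1 CPM and 14.1 to 225.8 CPM. The part of all these markers was not tested. The 2 members were Psma7 (log2 fold change 0.69, adjusted p = 0.0108) and Psmg4 (log2 fold change 1.24, adjusted p = 0.0353), whose call was lost in 6 of 8 fits that left out 1 library, and the medians were 0.29 for the members and 0.012 for all genes.

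Whole tumors stood apart in the inducible subunits. Psmb8 lay at 6.62, 20.5, 15.3 and 12.1 CPM in the 4 whole-tumor libraries, beside 151, 138, 143 and 162 CPM in untreated tumor PMN-MDSC and 250.1, 271, 228 and 143 CPM in untreated tumor M-MDSC. Psmb9 lay at 0.946, 3.21, 2.47 and 3.6 CPM in whole tumors, beside 22.7, 32.1, 25.2 and 23.1 CPM and 38.3, 41.6, 27.4 and 44 CPM. Every whole-tumor library was below every MDSC library for both genes. Psmb8 was 13.4-fold lower than in PMN-MDSC (log2 fold change -3.74, SE 0.30, adjusted p = 6.2e-07) and 18.4-fold lower than in M-MDSC (log2 fold change -4.20, SE 0.35, adjusted p = 9.29e-07). Psmb9 was 12.2-fold lower (log2 fold change -3.61, SE 0.36, adjusted p = 3.21e-06) and 16-fold lower (log2 fold change -4.00, SE 0.37, adjusted p = 2.22e-06). Psmb10, at 8.24, 14.6, 15.1 and 28 CPM in whole tumors, fell short of both cell types by less (log2 fold change -1.33, adjusted p = 0.00427 and log2 fold change -1.81, adjusted p = 0.000431). The PA28 genes did not follow, with Psme1 at 285, 306, 231 and 227 CPM (0.37 against PMN-MDSC and -0.21 against M-MDSC) and Psme2 at 69.5, 51.9, 58.3 and 61.3 CPM (0.057 and -0.18), none of them called. The levels shown are scaled over all 34 libraries and lie 0.284 (PMN-MDSC) and 0.139 (M-MDSC) higher on the log2 scale for whole tumors than the scaling inside each test.

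Over all members, whole tumors were higher in 16 and lower in 10 of 44 tested against PMN-MDSC, where 36.1% of all genes were higher and 33.3% lower. Against M-MDSC they were higher in 9 and lower in 14 of 44, where 38.2% were higher and 31% lower. With upper-quartile scaling, added after seeing the data, which moved the median of all genes from 0.085 to 0.389 and from 0.174 to 0.379, the members split into 19 higher and 7 lower and into 14 higher and 10 lower. Of the beta ring, 4 of 7 constitutive subunits and all 3 inducible ones were lower in both comparisons, 7 of the 10 lower members against PMN-MDSC and 7 of the 14 against M-MDSC, and none of the beta ring was higher. Psmb5 was lower too, at 10, 5.68, 8.92 and 13.5 CPM (log2 fold change -1.26, adjusted p = 0.00111 and log2 fold change -1.36, adjusted p = 0.00177), and Psmb6 less so (-0.54 and -0.50). The constitutive beta subunit Psmb2 had log2 fold changes of -1.44 (adjusted p = 0.00618) and -1.45 (adjusted p = 0.0155). Psmb7 was not called in either (0.16 and -0.17). Of the 6 ATPases, 4 were higher than in PMN-MDSC and none lower, while 2 were higher and 1 lower than in M-MDSC. The largest positive difference among them in both was that of Psmc1, at 287, 223, 208 and 197 CPM (log2 fold change 1.82, adjusted p = 1e-06 and log2 fold change 1.57, adjusted p = 3e-05).

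The largest positive difference was that of Psmd4, the 19S receptor for ubiquitin chains, which lay at 772, 948, 463 and 274 CPM in whole tumors (log2 fold change 2.12, SE 0.34, adjusted p = 0.000218 and log2 fold change 1.97, SE 0.34, adjusted p = 0.000327). Its libraries spread over more than 3-fold, yet each was above the tumor MDSC libraries, at 99.7 to 139 CPM in PMN-MDSC and 117 to 174 CPM in M-MDSC. The 19S scaffold subunit Psmd1 was also higher (log2 fold change 1.62, adjusted p = 7.91e-05 and log2 fold change 1.48, adjusted p = 0.000627). Psme4, an activator that caps the core without PA28, lay at 285, 266, 237 and 249.7 CPM beside 108, 126, 117 and 118 CPM in PMN-MDSC and 127, 121, 152 and 122 CPM in M-MDSC (log2 fold change 0.86, adjusted p = 0.000185 and log2 fold change 0.85, adjusted p = 0.000431). The share of the inducible subunits among the 6 exchangeable ones was 25.4% ± 7.45 in whole tumors, from 14.4% to 30.9%. Per kb, Psmb8 stood at 4.03 ± 1.72 CPM, below Psmb5 at 10.6 ± 3.6 CPM, the reverse of the order in MDSC on this scale. This reversal rests on exon lengths of 3381 bases for Psmb8 and 899 for Psmb5. In CPM, whole-tumor Psmb8 lay at 6.62, 20.5, 15.3 and 12.1 and Psmb5 at 10, 5.68, 8.92 and 13.5, which overlapped. PMN-MDSC markers summed to 6.62 to 13.1 CPM in whole tumors, with Ly6g at 0, M-MDSC markers to 61.9 to 111 CPM and epithelial markers to 3710 to 5519 CPM, so the cell types compared differ. Unlike whole tumors, the sorted cells were also dissociated, enriched and sorted before RNA was isolated, and this cannot be told apart from the cell type.

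**Figure D4:**
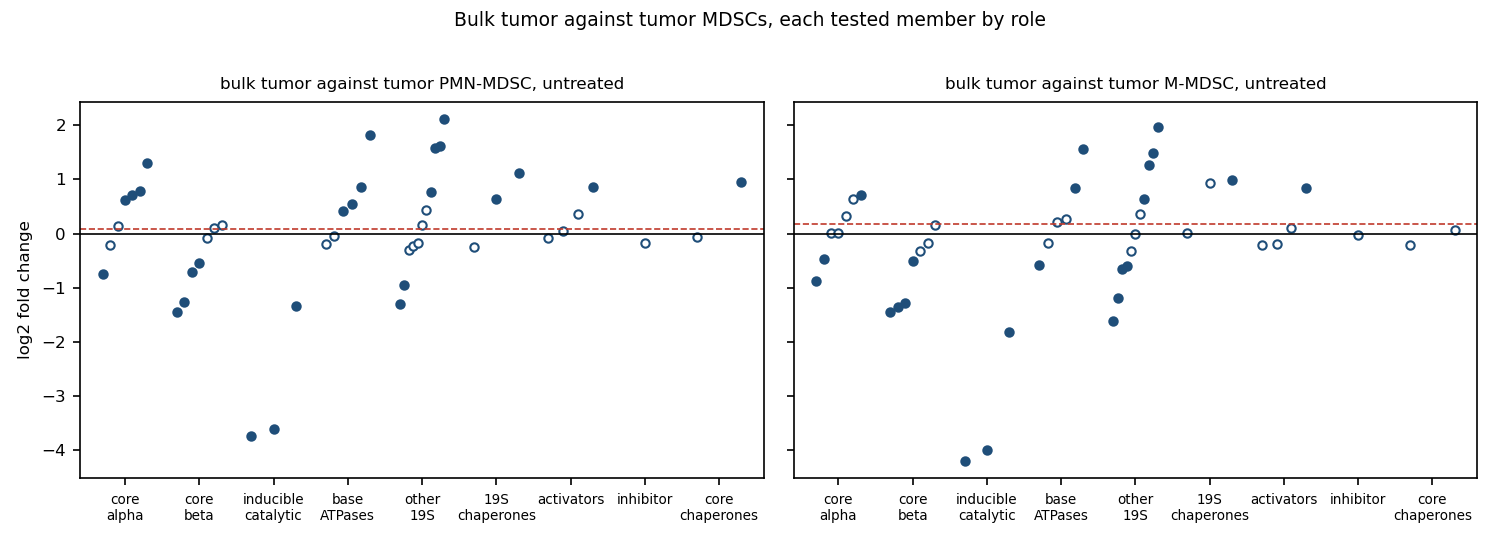
Log2 fold change of each member tested, by role, in untreated whole tumors against tumor PMN-MDSC and tumor M-MDSC. Filled points have an adjusted p under 0.05, and the dashed red line is the median of all genes tested. The 3 inducible catalytic subunits are below 0 in both panels, with Psmb8 and Psmb9 lowest, and Psmd4 and Psmc1 are the highest of the 19S particle in both.

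Genes that work with the proteasome were read alongside. Of 23 partner genes in the table (ubiquitin genes, shuttle receptors, 19S-associated proteins and the stress factors of proteasome genes), 8 rose and 1 fell in spleen M-MDSC (median 0.33), beside 10.7% higher and 8.96% lower of all genes. In spleen PMN-MDSC 2 rose of 21 tested (median 0.07), close to the 6.1% of all genes that did. In each of the tumor populations edgeR called 0 of 23, with 1 past an unadjusted p of 0.05 in each. Of all genes, 2.29% were higher and 1.07% lower in tumor PMN-MDSC, and 1.82% and 1.06% in tumor M-MDSC, so 0 of 23 was close to the background. DESeq2 called 1 of them in tumor PMN-MDSC and 0 in tumor M-MDSC. In spleen M-MDSC the unfoldase Vcp (0.75, adjusted p = 0.00498) rose, and Ddi2, the protease that activates Nfe2l1, fell (-0.80, adjusted p = 0.00416). In spleen PMN-MDSC the 19S subunit Sem1 (1.001, adjusted p = 0.0184) and the polyubiquitin gene Ubb (0.96, adjusted p = 0.0415) rose.

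The genes that take up the peptides after cleavage were followed next. B2m, the light chain of MHC class I, was called in all 4 populations, with 803 ± 88.7 to 2051 ± 555 CPM, log2 fold change 1.36, adjusted p = 0.00881 in spleen PMN-MDSC and 683 ± 33.1 to 1446 ± 244 CPM, log2 fold change 1.03, adjusted p = 0.000993 in spleen M-MDSC, and 1.13, adjusted p = 0.00755 and 1.47, adjusted p = 0.0174 in tumor PMN-MDSC and M-MDSC. Tap1, the peptide transporter that lies beside Psmb9, was called in 3, with 188 ± 75.9 to 642 ± 179 CPM, log2 fold change 1.77, adjusted p = 0.0136 in spleen PMN-MDSC, 1.07, adjusted p = 0.00341 in tumor PMN-MDSC and 1.20, adjusted p = 0.0012 in spleen M-MDSC. In tumor M-MDSC Tap1 was not called (0.85, adjusted p = 0.0657). Of this list 3 of 13, 2 of 14, 7 of 14 and 1 of 15 tested rose by edgeR in spleen PMN-MDSC, tumor PMN-MDSC, spleen M-MDSC and tumor M-MDSC, and none was called lower. DESeq2 called 3, 3, 9 and 3 higher in the same order, and 2 lower in spleen PMN-MDSC. The list's median log2 changes were 0.007, 0.088, 0.75 and 0.20 in the same order, beside 0.014, 0.006, -0.012 and -0.001 for all genes, of which 6.1%, 2.29%, 10.7% and 1.82% rose. Of 6 transcription factors that act on class I and immunoproteasome genes, 2 rose and 1 fell in spleen PMN-MDSC, beside 6.1% higher and 5.52% lower of all genes, and 3 rose in tumor PMN-MDSC and in spleen M-MDSC. DESeq2 called 3 higher and 1 lower both in spleen PMN-MDSC and in spleen M-MDSC. In tumor M-MDSC edgeR called 0 of the 6, with 2 past an unadjusted p of 0.05 and 0 called by DESeq2. Stat2 was the strongest in spleen PMN-MDSC (2.67, adjusted p = 0.00651), followed by Nlrc5, the activator of MHC class I genes (1.99, adjusted p = 0.027), while Irf8, a factor of monocyte and dendritic cell development, fell (-2.48, adjusted p = 0.0296). Stat2 rose in tumor PMN-MDSC (1.42, adjusted p = 0.00724) and spleen M-MDSC (1.47, adjusted p = 0.00218) as well, with Irf9, its partner, in the former (1.08, adjusted p = 0.0163). In tumor M-MDSC Stat2 was not called (0.76, adjusted p = 0.132).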

How the data were processed

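MDSC sorted from spleens and tumors, and whole tumors, were profiled by total RNA sequencing with a stranded low-input kit and ribosomal RNA depletion. The authors mapped reads with ContextMap, based on BWA, to GRCm38 and deposited raw read counts per gene, made strand-specifically with featureCounts (Subread 1.4.6-p3, per the labels). Of 53379 Ensembl IDs, 53274 matched the GENCODE annotation.

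Counts were tested with edgeR 4.0.16 (TMM, robust quasi-likelihood) in R 4.3.3, each comparison on its own libraries, for genes averaging 25 counts or more. Differences of effects came from 1 fit over 8 MDSC groups. Ratios used 0.5 added counts and exact permutation. Whole-series depth and markers were checked first, no 2 libraries were identical and 1 library of 10 counts was left out. Named genes were the inducible, exchangeable catalytic, activator and tissue-restricted members, in each comparison the called members with the 3 largest and 3 smallest log2 changes, and in each other list the 3 smallest adjusted p of each treatment comparison. Psmd7, the members with a cell type difference or at a count's edge, and Psmd10 and Psmf1 were named after their values were seen. Some results that this rule names are not reported here. The members, gene lists and tests were chosen with earlier results of these data known. Alternatives were DESeq2 1.42.0, RLE scaling, no filter, the study's thresholds (adjusted p under 0.001 and 2-fold) on edgeR's p-values, a fit of all groups, other added counts, medians and leaving out each library. Upper-quartile scaling and Psme2 summed with Psme2b were added after seeing the data. Promoter windows came from RefSeq.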

Additional observations from a re-analysis of the deposited data

Results flagged for a closer look

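In 91 sets of 4 libraries checked by Dixon's test at its 95% critical value, 5 had 1 library far from the others, and chance alone gives about 1 in 20. Psmb9 in untreated spleen PMN-MDSC replicate 2 was at 73 CPM against 31.6 to 37.5 in the other libraries (gap over range 0.859). Psme1 in untreated tumor M-MDSC replicate 4, the library with 793070 counts, was at 450 CPM against 214.7 to 236.2 (0.909). Psmb5 in treated tumor PMN-MDSC replicate 3 was at 16.8 CPM against 24.4 to 25.3 (0.899). The log2 ratio of Psmb10 to Psmb7 in untreated tumor PMN-MDSC replicate 2 was 0.94 against 1.42 to 1.52 (0.840), and that of Psmb8 to Psmb5 in untreated spleen PMN-MDSC replicate 3 was 0.63 against 1.53 to 1.62 (0.907).

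For 6 of 42 members the treatment effect differed between spleen M-MDSC and spleen PMN-MDSC by the test of the difference itself, a share close to the 13.4% of all genes that did. Leaving out 1 library at a time moved the count between 0 and 8. On the log2 scale as M-MDSC minus PMN-MDSC, the differences were 0.98 for Psma3, 0.99 for Psmc1, 1.23 for Psmd3, 1.51 for Psmd7, 0.79 for Psmd11 and 1.08 for Psmd14.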

How the results depend on the processing

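Shares of all genes called were counted only for the main fits and, for treatment, the study's thresholds. Counts of members called moved as follows. In spleen PMN-MDSC treatment called 2, and 4 by DESeq2, 4 with no filter, 8 with all groups in 1 fit and 0 by the study's thresholds on edgeR's p-values, meant below too. In tumor PMN-MDSC it called 1, and 0 by the study's thresholds and with all groups. In tumor M-MDSC it called 0, and 1 by DESeq2 and 2 with all groups. In spleen M-MDSC 34 became 1 by the study's thresholds. Tumor against spleen PMN-MDSC gave 23, and 13 with no filter and 1 by the study's thresholds, and for M-MDSC 2, then 0 by upper-quartile scaling, 1 with no filter, 0 by the study's thresholds and 1 with all groups. M-MDSC against PMN-MDSC gave 30 in spleen (5 by the study's thresholds) and 2 in tumor (5 with no filter, 0 by the study's thresholds, 1 with all groups). Whole tumors gave 26 and 23, and 9 and 8 by the study's thresholds. The 6 members with a cell type difference in spleen became 3 with no filter, and the compartment differences, 0 in both cell types, became 1 and 1 by DESeq2.

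Leaving out 1 library at a time gave 1 to 3 (spleen PMN-MDSC), 0 to 1 (tumor PMN-MDSC), 0 to 1 (tumor M-MDSC), 14 to 26 (tumor against spleen PMN-MDSC), 0 to 6 (M-MDSC), 1 to 5 (M-MDSC against PMN-MDSC in tumor), 0 to 8 (cell type, spleen), 0 to 3 (compartment, PMN-MDSC) and 0 to 1 (compartment, M-MDSC). Spleen M-MDSC stayed at 28 to 35. Compartment M-MDSC reached 1 without treated tumor M-MDSC replicate 1.

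Signs changed as follows. By upper-quartile scaling the values were Psmb7 -0.010 (treatment, tumor PMN-MDSC), Psmb9 0.058 (M-MDSC against PMN-MDSC, spleen), Psme2 0.021 (whole tumor against M-MDSC), and, for tumor against spleen M-MDSC, Psmb8 -0.102, Psmb9 -0.145, Psmb10 -0.151 and Psme2 -0.117. This scaling moved the median of all genes by up to 0.304, and in tumor against spleen M-MDSC from 0.016 to -0.134. In the same M-MDSC comparison RLE gave Psmb9 -0.010 and Psmb10 -0.014, DESeq2 -0.009 and -0.018, all groups Psmb10 -0.008, and Psme2 with Psme2b -0.297, which was -0.035 for PMN-MDSC. The median Psmb10 to Psmb7 ratio in tumor PMN-MDSC moved by -0.059.

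Sign also changed without 1 library, over these ranges. For treatment they were Psmb6 -0.014 to 0.59 (spleen PMN-MDSC), Psmb7 -0.059 to 0.055 and Psmb10 -0.083 to 0.346 (tumor PMN-MDSC), Psmb5 -0.113 to 0.325, Psmb7 -0.234 to 0.122, Psmb10 -0.029 to 0.548 and Psme1 -0.121 to 0.457 (tumor M-MDSC). For tumor against spleen they were Psmb8 -0.061 to 0.42 and Psme1 -0.024 to 0.301 (PMN-MDSC), and Psmb8 -0.076 to 0.183, Psmb9 -0.092 to 0.17, Psmb10 -0.16 to 0.127, Psme1 -0.072 to 0.374 and Psme2 -0.082 to 0.138 (M-MDSC). The others were Psmb9 -0.31 to 0.132 (M-MDSC against PMN-MDSC, spleen), Psme2 -0.04 to 0.125 and Psme1 -0.333 to 0.052 (whole tumor against PMN-MDSC and M-MDSC), and the ratios Psmb8 to Psmb5 -0.122 to 0.322 (spleen PMN-MDSC) and -0.079 to 0.157 (spleen M-MDSC) and Psmb10 to Psmb7 -0.109 to 0.206 (spleen M-MDSC) and -0.077 to 0.267 (tumor PMN-MDSC).

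The cause of these changes was not tested, apart from the study's thresholds, which are stricter by construction. No paired analysis was possible because the columns of the count table carry running numbers that no label ties to the numbers in the sample titles. Psmg1, Psmg2 and Psmg3 fell under the count minimum in MDSC and were tested there only with no filter.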
